A study of Mus musculus with 8 samples.

Results

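Embryoid bodies are floating aggregates of embryonic stem cells that leave pluripotency and form derivatives of the embryo's germ layers. The genes described here are those that changed between day 4 and day 6 of control embryoid bodies. A gene belonged to the set when its deposited FPKM (mapped fragments scaled to transcript length and to the size of the library) was at least 1 in the control day 4 or the control day 6 library. That rule kept 12606 of the 22558 gene symbols of the table and left out 9952. The symbols on either side of the minimum were Col6a3, with a higher value of 1.0001 FPKM, and Gm5797, with 0.999 FPKM. Each side of the comparison is 1 library, so no difference below has a replicate check, an error or a p-value.

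The cells were mouse embryonic stem cells, given for the series as R1 and R1/E, lines that were kept on feeder cells before differentiation. The control libraries are labelled by treatment as control and by time as embryoid bodies of day 2, 4 or 6. A second set of libraries came from doxycycline-induced cells overexpressing Oct6 (Pou3f1), a POU transcription factor of the epiblast and early neural tissue, on the same days. The labels do not say which of the lines gave which library or whether the control cells carry the transgene. Only the titles of the induced libraries hold "dox", and the labels say nothing further on doxycycline in control cells. The library titles begin with "fbs", a prefix the labels do not explain, while the growth protocol describes neural differentiation without serum, so the medium of these libraries is not known.

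In mouse embryoid bodies the inner cells first pass through a state like that of the epiblast. Under Nodal, Wnt and BMP signals, part of them then form primitive streak-like cells, which express T (brachyury) and Mixl1 and give rise to mesoderm and endoderm. Mesoderm goes on to form heart muscle, blood, vessels and connective tissue, and the first red cells carry embryonic globins. Cells that do not receive these signals tend towards neuroectoderm. The interval from day 4 to day 6 was read against this sequence.

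Depth differed between the libraries compared. The steps between low FPKM values, compared between libraries, put the day 4 library at 1.93 times the depth of the day 6 library. A separate estimate from the value of 1 fragment and annotated transcript lengths gave 5.11e+07 and 2.55e+07 fragments. The 6 libraries of the table ranged from 2.3e+07 to 5.11e+07 fragments by the second estimate. One FPKM in a transcript of 2 kb then stands for about 102 fragments at day 4 and 51.1 at day 6. For the same transcript, 3 fragments would give 0.0294 FPKM at day 4 and 0.0587 at day 6, which is the limit that a value of 0 allows for counting error only. A gene listed at 0 can also be a failed estimate.

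A gene was counted as higher or lower at day 6 when log2(FPKM + 1) differed by at least 1 from day 4. The added 1 understates the change of weakly expressed genes. By this rule 775 genes (6.15% of those expressed) were higher at day 6 and 375 (2.97%) were lower, 9.12% in all, and 67.4% of the called genes were higher. The median difference of all expressed genes was 0.09, with quartiles of -0.17 and 0.37. Bringing both libraries to one distribution (quantile normalisation) moved that median by over 0.1, to -0.01 (from 0.09), and gave 626 higher and 511 lower genes, 55.1% higher. Scaling to a common median ratio gave 681 and 424, 61.6% higher.

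The genes that were higher were mostly weak or off at day 4. Their median FPKM was 1.15 at day 4 and 6.38 at day 6, and 364 of them (47.0%) were below 1 FPKM at day 4. The genes that were lower had been expressed at a median of 9.27 FPKM and stood at 2.52 at day 6, and 105 of them (28.0%) were below 1 FPKM by then. Large changes were mainly upward: 45 genes were higher by 8-fold or more on the log2(FPKM + 1) scale and 8 lower, and 152 against 51 passed 4-fold. Of all the higher genes, whatever their day 4 value, 435 had been below 1 FPKM at day 2, and 307 of the lower genes had been at 1 FPKM or more on that day. These are bulk libraries, in which more cells of a type and more RNA per cell cannot be told apart.

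**Figure D1:**
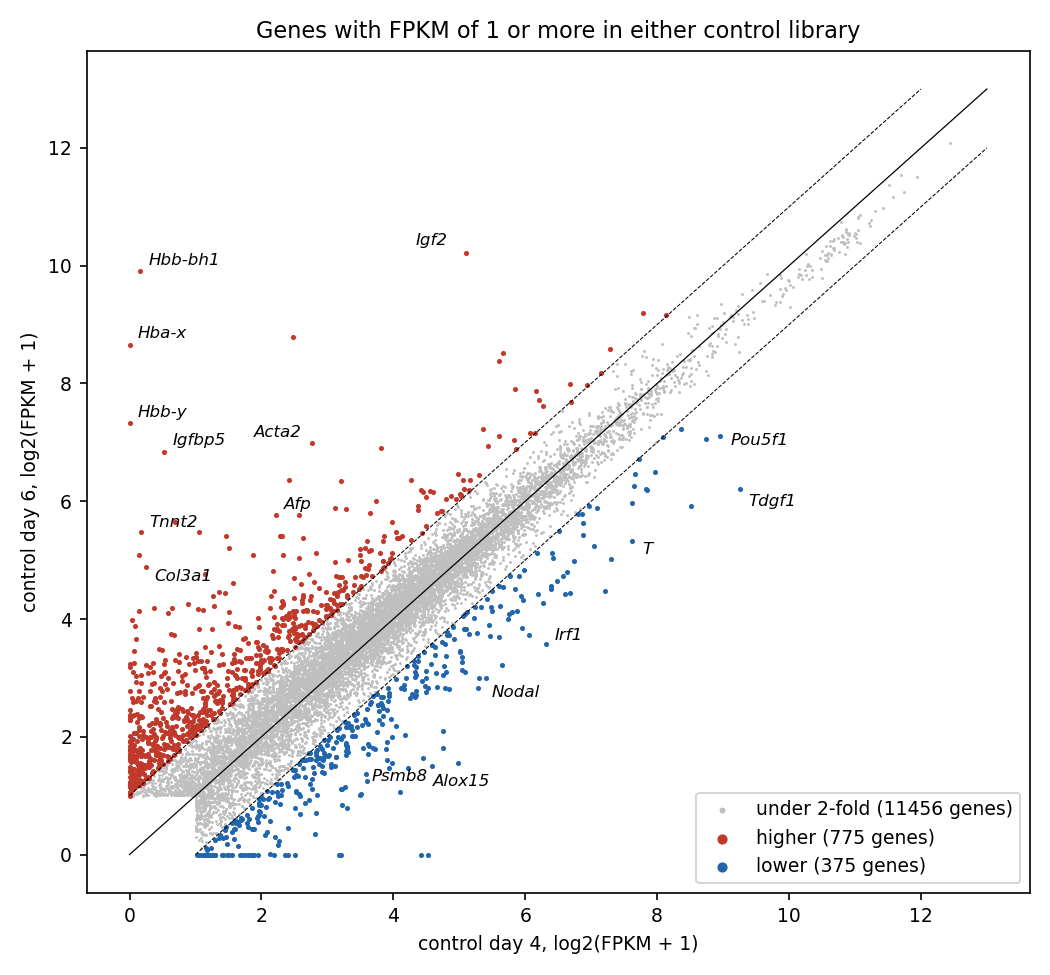
Each point is 1 of the 12606 expressed genes, with log2(FPKM + 1) in the control day 4 library on the x axis and in the control day 6 library on the y axis. The solid line marks equal values and the dashed lines 2-fold; the 775 higher genes lie above and the 375 lower ones below, with the embryonic globins Hbb-bh1, Hba-x and Hbb-y farthest above and Tdgf1, Alox15, Psmb8 and Irf1 among those farthest below.

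For a description by role, 39 gene lists (693 distinct symbols) were used, with each list's count of called genes set beside the shares of 6.15% and 2.97% over all expressed genes and its median set beside 0.09. A list member is counted only if it was expressed, and a gene that is expressed only at day 6 had to differ, so a list's count describes its expressed members and not the list as a whole. The lists with the highest medians were cardiac sarcomere (2.26), erythroid (2.22), cardiac and lateral mesoderm factors (2.19), endothelium and epithelial-mesenchymal transition (1.82 each). The lowest were primitive streak (-1.46), interferon and major histocompatibility complex (MHC) genes (-1.01), core pluripotency (-0.94) and germ cell genes (-0.91).

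**Figure D2:**
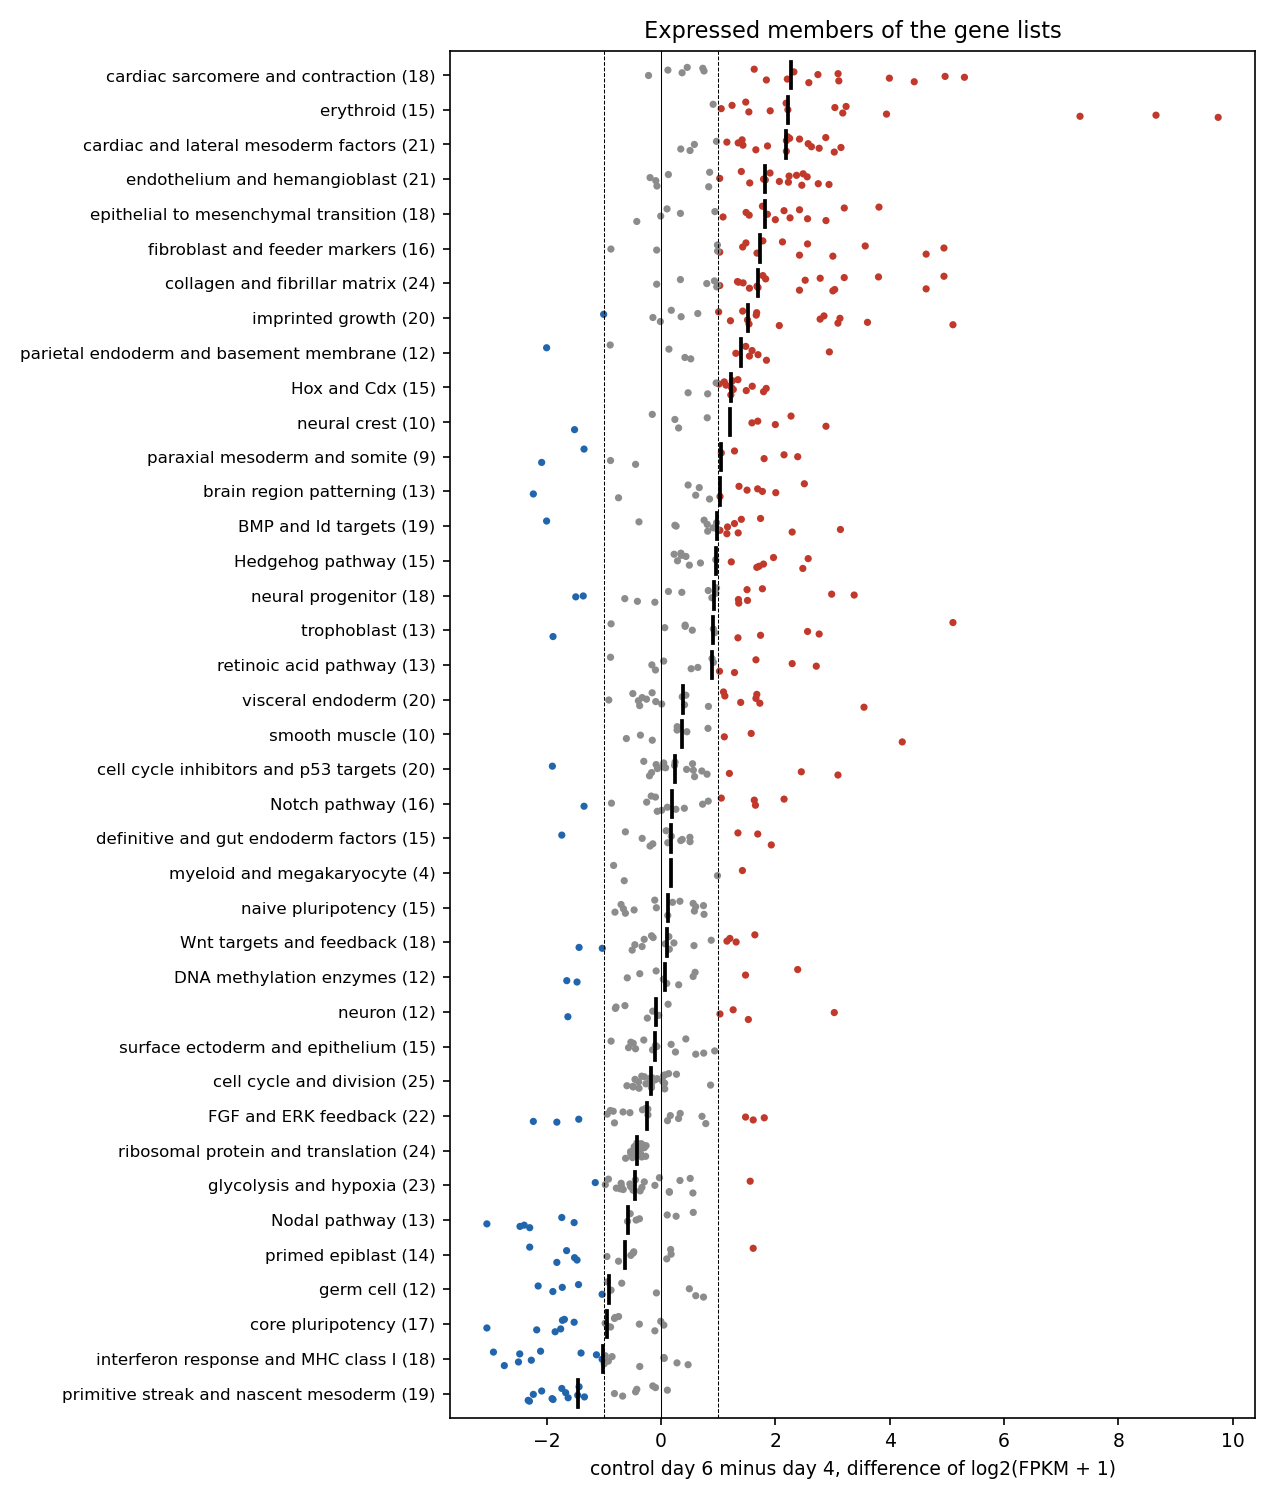
Each point is an expressed gene of 1 of the 39 lists (number of expressed members in parentheses), placed on the x axis by its difference in log2(FPKM + 1), control day 6 minus day 4; black bars mark list medians, dashed lines the threshold of 1, red points higher genes and blue points lower ones. Cardiac, erythroid, endothelial and matrix lists stand at the top with medians of 1.69 to 2.26, and the primitive streak list at the bottom with -1.46.

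Pluripotency genes were lower at day 6 in part. Of 17 expressed core pluripotency genes 7 were lower and none higher. Pou5f1, which encodes Oct4, stood at 890.0, 495 and 136 FPKM at days 2, 4 and 6. Nanog, its partner in the pluripotency network, stood at 50.6, 96.5 and 20.6 FPKM at days 2, 4 and 6, so its highest control value was at day 4. Sox2, a factor of both pluripotent and neural cells, stood at 135, 35.5 and 32.8 FPKM at days 2, 4 and 6, and the day 4 and day 6 values differed by -0.11. The largest difference of the list, -3.05, belonged to Tdgf1 (Cripto), the Nodal coreceptor, with 412, 608 and 72.5 FPKM at days 2, 4 and 6. Utf1, a chromatin factor of pluripotent cells, stood at 320.3, 71.9 and 20.6 FPKM at days 2, 4 and 6, and L1td1, an RNA-binding protein, at 174, 52.3 and 15.1 FPKM at days 2, 4 and 6. Both were lower at each later day.

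None of the 15 expressed naive pluripotency factors was called in either direction, and their median was 0.12 (-0.11 at a minimum of 5 FPKM and -0.05 after quantile normalisation). Klf4, a factor of the naive state, stood at 5.38, 1.12 and 2.56 FPKM at days 2, 4 and 6. Esrrb, an orphan nuclear receptor of the same network, stood at 26.5, 5.86 and 2.92 FPKM at days 2, 4 and 6. Genes of the primed, post-implantation epiblast were lower in 5 of 14 cases and higher in 1. Fgf5, the classical epiblast marker, stood at 25.4, 88.1 and 24.1 FPKM at days 2, 4 and 6, a peak at day 4. Foxd3 stood at 31.4, 6.54 and 1.64 FPKM at days 2, 4 and 6 and Dnmt3b, a de novo DNA methyltransferase, at 348, 248 and 88.9 FPKM at days 2, 4 and 6. Pou3f1 itself, the gene overexpressed in the other libraries, stood at 64.3, 10.1 and 4.76 FPKM at days 2, 4 and 6 in the control libraries, a difference of -0.95 that missed the threshold. The 1 member of that list that was higher was Fgf15, at 33.4, 4.26 and 15.1 FPKM at days 2, 4 and 6.

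Of 19 expressed primitive streak genes 12 were lower at day 6 and none higher. The members named next were low at day 2 and highest at day 4. T stood at 0.856, 196 and 38.8 FPKM at days 2, 4 and 6 and Mixl1, a homeobox factor of the streak, at 0.888, 65.7 and 12.3 FPKM at days 2, 4 and 6. Fgf8, the streak's FGF ligand, stood at 1.37, 102 and 20.8 FPKM at days 2, 4 and 6. Each was still above its day 2 level at day 6. Msgn1, a factor of presomitic mesoderm, was almost gone at day 6, with 0.0441, 3.76 and 0.118 FPKM at days 2, 4 and 6. Mesp1, which marks the first cardiac and cranial mesoderm, was listed at 0 at day 2 and stood at 12.8 FPKM at day 4 and 4.44 at day 6. Eomes, a T-box factor of streak and definitive endoderm, stood at 4.36, 83.1 and 21.7 FPKM at days 2, 4 and 6.

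Among genes of the Nodal pathway, the ligand and its inhibitors were lower at day 6. Of 13 expressed members 6 were lower and none higher, with a median of -0.59. The ligand gene Nodal stood at 46.7, 38.4 and 7.0 FPKM at days 2, 4 and 6. The extracellular inhibitors Lefty1 and Lefty2 had values of 163, 38.1 and 6.06 FPKM at days 2, 4 and 6, and of 39.8, 41.2 and 7.01 FPKM at days 2, 4 and 6, respectively. Cer1, a secreted inhibitor made by anterior endoderm and streak, stood at 0.155, 57.9 and 16.7 FPKM at days 2, 4 and 6. Lefty1, Nodal and Gdf3 (37.8, 7.33 and 1.9 FPKM at days 2, 4 and 6) were lower on each later day, while Cer1 peaked at day 4.

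A pair of microRNA clusters of pluripotent cells appeared in the table as hairpin genes. They are shown here because 5 of their mature forms in the RefSeq table used share a seed, the stretch that pairs with target mRNAs. That RefSeq table has no entry for miR-302a-3p of these clusters, so the count of 5 covers only the forms it holds. The hairpin genes were added after their values were seen. The mature forms with the seed AAGUGCU (bases 2 to 8, in capitals) number 5 of the 1679 mature mouse microRNAs in the RefSeq table used (GRCm38.p6), which is not complete, and these 5 come from the cluster of Mir302 and Mir367 on chromosome 3 or from that of Mir290 to Mir295 on chromosome 7:
mmu-miR-302b-3p: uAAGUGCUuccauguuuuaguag
mmu-miR-302d-3p: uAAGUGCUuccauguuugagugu
mmu-miR-291a-3p: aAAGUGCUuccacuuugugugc
mmu-miR-294-3p: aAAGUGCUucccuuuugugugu
mmu-miR-295-3p: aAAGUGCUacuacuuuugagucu
They lie at chr3:127545275-127545297, chr3:127545665-127545687, chr7:3218968-3218989, chr7:3220691-3220712 and chr7:3220815-3220837, all on the plus strand.

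The hairpins of both clusters were lower at day 6 than at day 4, from different starting points. Mir302b stood at 0, 17.7 and 1.78 FPKM at days 2, 4 and 6, and Mir302d was listed at 0 at day 6 after 2.52 and 20.4 FPKM at days 2 and 4. Mir367, in the same transcript, stood at 1.22, 32 and 9.23 FPKM at days 2, 4 and 6. Thus the hairpins of this cluster that are named here peaked at day 4. In the other cluster Mir294 stood at 32.4, 19.4 and 5.87 FPKM at days 2, 4 and 6 and Mir295 at 51.2, 32.9 and 7.59 FPKM at days 2, 4 and 6, lower on each later day. Mir292 differed least, with 2.8 FPKM at day 4 and 2.46 at day 6. The FPKM of so short a gene is uncertain and measures fragments over the hairpin, not mature microRNA.

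Of 18 expressed interferon-response and antigen presentation genes 9 were lower at day 6 and none higher, with a median of -1.01. Psmb8, a subunit of the immunoproteasome, stood at 4.44, 25.9 and 2.52 FPKM at days 2, 4 and 6. Tap2, a chain of the peptide transporter of antigen presentation, stood at 2.44, 10.2 and 1.02 FPKM at days 2, 4 and 6. Irf1, an interferon regulatory factor, stood at 43.4, 78.8 and 10.9 FPKM at days 2, 4 and 6, and Bst2 (tetherin) at 69, 156 and 31.5 FPKM at days 2, 4 and 6. The guanylate-binding proteins Gbp1 and Gbp2, interferon-induced GTPases that were among the 12 largest downward differences, stood at 1.82, 16.2 and 1.08 FPKM at days 2, 4 and 6, and at 3.23, 22.9 and 1.82 FPKM at days 2, 4 and 6, respectively. Gbp1 and Gbp2 are close relatives, and their fragments may be split between them. All of these peaked at day 4. B2m, the light chain of MHC class I, stood at 12.2, 63.7 and 65.9 FPKM at days 2, 4 and 6 and did not follow them.

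Interferon regulatory factors bind repeats of GAAA, here searched as a pair of GAAA copies with any 2 bases between them. The 250 bases before the annotated start of Isg15, a ubiquitin-like interferon-induced protein (0.197, 8.78 and 0.734 FPKM at days 2, 4 and 6), and of Gbp2 both hold this motif, on either strand, and are shown for that reason (RefSeq, GRCm38.p6, 5′ to 3′ on the gene's strand, motif in capitals):
Isg15: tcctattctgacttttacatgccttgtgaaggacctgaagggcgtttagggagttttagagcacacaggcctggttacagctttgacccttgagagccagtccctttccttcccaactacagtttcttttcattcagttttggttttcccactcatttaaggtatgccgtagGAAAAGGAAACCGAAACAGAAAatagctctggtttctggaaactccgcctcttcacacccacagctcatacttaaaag
Gbp2: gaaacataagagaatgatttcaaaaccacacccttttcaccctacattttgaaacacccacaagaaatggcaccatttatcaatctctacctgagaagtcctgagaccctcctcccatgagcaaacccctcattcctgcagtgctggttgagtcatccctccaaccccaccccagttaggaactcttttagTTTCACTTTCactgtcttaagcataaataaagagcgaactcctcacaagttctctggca
The windows are chr4:156200819-156201068 (minus strand) and chr3:142620413-142620662 (plus strand). In Isg15 the capitals cover 3 overlapping matches, and in Gbp2 the match is on the opposite strand. Over windows of 250 bases before annotated gene starts on NCBIM37, with both strands searched, the motif was present in 8.19% of the lower genes (29 of 354), 3.15% of the higher genes (24 of 761), 2.75% of expressed genes (341 of 12402) and 3.80% of all 33882 windows. Of the 18 expressed interferon and MHC genes 6 held it, of which Bst2 and Isg15 were lower and B2m, Ifit1, Ifitm2 and Oas1a were not called. A match is a description of the letters and not evidence that a factor binds there.

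Germ cell genes were lower in 5 of 12 cases and higher in none. Sycp3, a protein of the meiotic chromosome axis, stood at 10.04, 17.1 and 3.07 FPKM at days 2, 4 and 6. Ddx4 (Vasa), an RNA helicase of germ cells, stood at 7.93, 5.02 and 0.618 FPKM at days 2, 4 and 6, and Dnd1, an RNA-binding protein needed in germ cells, at 6.2, 10.6 and 2.51 FPKM at days 2, 4 and 6. With small RNA, predicted, RIKEN and pseudogene symbols and chromosome 18 left out, the largest downward difference, -3.42, was that of Alox15, a lipoxygenase, at 0.933, 30.5 and 1.95 FPKM at days 2, 4 and 6. Igfbp3, which binds insulin-like growth factors, stood at 10.1, 147 and 21.2 FPKM at days 2, 4 and 6, and Upp1, uridine phosphorylase, at 224, 363 and 59.8 FPKM at days 2, 4 and 6. Like T and Mixl1, Alox15 and Igfbp3 were highest at day 4.

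Of 18 expressed heart muscle genes of the sarcomere list (25 in all) 12 were higher at day 6 and none lower. Several that were near 0 at day 4 were well expressed at day 6. Tnnt2, cardiac troponin T of the thin filament, stood at 0.0885, 0.132 and 43.8 FPKM at days 2, 4 and 6, a difference of 5.31. Tnni1, the slow troponin I of embryonic heart, stood at 0.15, 0.61 and 49.4 FPKM at days 2, 4 and 6. Myl4, the embryonic atrial light chain of myosin, stood at 0.586, 1.07 and 43.6 FPKM at days 2, 4 and 6, and Myh7, the beta heavy chain, at 0.159, 0.106 and 16.6 FPKM at days 2, 4 and 6. Myl7, the atrial regulatory light chain, was already present at day 4, with 1.17, 8.76 and 57.5 FPKM at days 2, 4 and 6. The calcium handling genes Ryr2, Pln and Casq2 and the natriuretic peptide genes Nppa and Nppb were below 1 FPKM on both days and so were not counted. Each had a higher value at day 6, the highest being that of Ryr2, with 0.0949 FPKM at day 4 and 0.913 at day 6. The calcium pump gene Atp2a2 of the same list stood at 90.7, 62.6 and 68.0 FPKM at days 2, 4 and 6 and was not called. Myh6 and Myh7 are similar in sequence, so their separate levels are uncertain.

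The factors that specify heart and lateral mesoderm were higher in 17 of 21 expressed cases and lower in none. Hand2, a basic helix-loop-helix factor of the heart, stood at 0.0747, 1.04 and 17.1 FPKM at days 2, 4 and 6, and Isl1, which marks the second heart field, at 0.41, 1.17 and 16.7 FPKM at days 2, 4 and 6. Meis1, a homeobox cofactor, stood at 0.391, 0.237 and 8.1 FPKM at days 2, 4 and 6. Hand1 stood at 0.28, 7.65 and 57.8 FPKM at days 2, 4 and 6. Nkx2-5, a core cardiac factor, reached a lower level, with 0.109, 0.126 and 4.14 FPKM at days 2, 4 and 6. Gata4, which also serves endoderm, was already expressed at day 4 and was not called, with 2.47, 14.5 and 21.1 FPKM at days 2, 4 and 6. Tbx5 and Irx4 were below 1 FPKM on both days and so were not counted, with higher values at day 6. Tbx5 stood at 0.0563 FPKM at day 4 and 0.64 at day 6, and Irx4 at 0.0897 and 0.344 FPKM.

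The promoter of Actc1, the cardiac alpha-actin (0.171, 3.99 and 41.6 FPKM at days 2, 4 and 6), is shown because it holds a CArG box (CC, then 6 of A or T, then GG), the site of serum response factor, in capitals (chr2:114052876-114053125, minus strand, RefSeq GRCm38.p6):
Actc1: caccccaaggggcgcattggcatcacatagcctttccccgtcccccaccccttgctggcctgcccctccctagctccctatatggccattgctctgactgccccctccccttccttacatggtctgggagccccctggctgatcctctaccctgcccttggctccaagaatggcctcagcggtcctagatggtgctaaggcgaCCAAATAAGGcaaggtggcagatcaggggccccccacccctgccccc
The box begins 47 bases before the annotated start. In the NCBIM37 windows 3 of the 18 expressed sarcomere genes held a CArG box: Myl3 and Myl7, which were higher, and Ldb3, which was not called. The shares were 1.17% of expressed genes, 1.45% of the higher genes, 2.54% of the lower genes and 1.34% of all windows. Of the 10 expressed smooth muscle genes 3 held it (Flna, Myl9 and Tagln), none of them called. The NCBIM37 window of Actc1, taken at the 5′ end of the whole annotated gene, did not hold it.

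Of 10 expressed smooth muscle genes 3 were higher and none lower, with a median of 0.37. Acta2, the smooth muscle actin that early cardiomyocytes and myofibroblasts also express, stood at 0.494, 5.81 and 126 FPKM at days 2, 4 and 6, a difference of 4.22. Cald1 (caldesmon) stood at 8.1, 21.6 and 66.2 FPKM at days 2, 4 and 6 and Myocd (myocardin), a cofactor of serum response factor, at 0.0244, 0.0398 and 1.24 FPKM at days 2, 4 and 6. Cnn1 (calponin), with 2.42, 12.4 and 7.77 FPKM at days 2, 4 and 6, was not called. Myh11, the smooth muscle myosin heavy chain, stayed below 1 FPKM.

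Erythroid genes held the largest differences of all. Of 15 expressed members (22 in the list) 14 were higher and none lower. Hbb-bh1, the embryonic beta-like globin (mm9 chr7:110990150-110991678, minus strand, protein coding), stood at 0.355, 0.121 and 962 FPKM at days 2, 4 and 6, a difference of 9.75. Hba-x, the embryonic alpha-like globin zeta, was at 0.0924 FPKM at day 2, was listed at 0 at day 4 and stood at 403 FPKM at day 6. Hbb-y, the epsilon-type globin, was likewise listed at 0 at day 4 and stood at 159.7 FPKM at day 6. The globins of later red cells were far lower. Hba-a1 stood at 14.8 FPKM and Hba-a2 at 8.07 FPKM at day 6, near-identical copies whose split is uncertain, and the adult genes Hbb-b1 and Hbb-b2 stayed below 1 FPKM.

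Other red cell genes were expressed at lower levels than the embryonic globins. Alas2, the erythroid enzyme of heme synthesis, stood at 0.443, 0.365 and 10.2 FPKM at days 2, 4 and 6. Gata1, the master factor of the lineage, was present at day 4 and stood at 0.241, 1.42 and 6.02 FPKM at days 2, 4 and 6. The membrane proteins Slc4a1 and Rhag of later red cells were below 1 FPKM on both days and so were not counted. Their values were higher at day 6: Slc4a1 stood at 0.0122 FPKM at day 4 and 0.86 at day 6, and Rhag at 0.022 and 0.684 FPKM.

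The promoters of Hba-x and Hbb-y are shown as the 2 genes of the set that were listed at 0 at day 4 and passed 10 FPKM at day 6 (RefSeq, GRCm38.p6, 250 bases before the start, chr11:32276350-32276599 on the plus strand and chr7:103853208-103853457 on the minus strand). The capitals mark a TATAAA box in Hba-x and a CCAAT box in Hbb-y:
Hba-x: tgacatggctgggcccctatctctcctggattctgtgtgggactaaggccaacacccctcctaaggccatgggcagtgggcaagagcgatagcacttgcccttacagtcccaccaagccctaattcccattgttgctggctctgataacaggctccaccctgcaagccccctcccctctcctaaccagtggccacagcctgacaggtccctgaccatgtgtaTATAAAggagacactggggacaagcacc
Hbb-y: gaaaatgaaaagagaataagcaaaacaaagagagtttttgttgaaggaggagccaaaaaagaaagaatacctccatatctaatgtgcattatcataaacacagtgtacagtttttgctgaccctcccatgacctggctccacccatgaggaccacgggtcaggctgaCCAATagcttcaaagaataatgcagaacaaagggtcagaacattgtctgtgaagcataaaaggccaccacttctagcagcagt
Each of these windows holds 1 CG dinucleotide, and the windows of the erythroid and sarcomere lists had medians of 4 and 5. The median was 15 for expressed genes, 11 for the higher genes, 9 for the lower genes and 5 for all windows. AGATAA, a form of the GATA site, was present in 4 of the 15 expressed erythroid genes, among them Alas2 and Epor. It was present in 5.93% of expressed genes, 7.23% of the higher genes, 8.76% of the lower genes and 11% of all windows. CCACACCC, a CACCC box that was also searched, was present in 0 of the 15, against 2.97% of all windows. TATAAA was present in 6.57% of the windows of expressed genes and 14.1% of all windows, and CCAAT in 36.0% and 33.9%, so a CCAAT match is common.

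Endothelial genes were higher in 15 of 21 expressed cases and lower in none. Cdh5 (VE-cadherin), the adhesion protein of vessel walls, stood at 0.129, 0.124 and 6.55 FPKM at days 2, 4 and 6. Tie1 and Tek, receptors of the angiopoietin system, stood at 0.136, 0.0705 and 7.2 FPKM at days 2, 4 and 6, and at 1.81, 0.242 and 5.84 FPKM at days 2, 4 and 6, respectively. Sox18, a factor of vessel formation, stood at 1.1, 0.271 and 6.47 FPKM at days 2, 4 and 6. Kdr, the VEGF receptor of early vascular and blood progenitors, had appeared by day 4, with 0.263, 6.97 and 13.2 FPKM at days 2, 4 and 6, and was not called. Its day 4 to day 6 difference of 0.83 was below those of the adhesion and angiopoietin receptor genes. Myeloid and megakaryocyte genes were largely undetected: 4 of 16 were expressed, and among these Itga2b (integrin alpha-IIb) was higher, with 0.399, 0.54 and 3.13 FPKM at days 2, 4 and 6. Ptprc, Csf1r and Pf4 were below 1 FPKM on both days.

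Of 24 expressed collagen and matrix genes 18 were higher, and of 18 genes of epithelial-mesenchymal transition 13 were higher, with none lower in either list. Col3a1, a fibrillar collagen, stood at 0.672, 0.192 and 28.6 FPKM at days 2, 4 and 6, and Col1a1 at 2.01, 1.72 and 20.8 FPKM at days 2, 4 and 6. Postn (periostin), a matrix protein of heart valves and mesenchyme, stood at 0.143, 0.101 and 33 FPKM at days 2, 4 and 6. Hapln1, which links hyaluronan to proteoglycans in the cardiac jelly, stood at 0.073, 0.0556 and 13.7 FPKM at days 2, 4 and 6. Tgfb2, a TGF-beta ligand of heart cushions, stood at 0.215, 2.67 and 32.8 FPKM at days 2, 4 and 6, and Snai2 (Slug), a repressor of epithelial genes, at 0.625, 0.128 and 7.32 FPKM at days 2, 4 and 6. Vim (vimentin), abundant throughout, stood at 35.7, 40.1 and 148 FPKM at days 2, 4 and 6. Cdh1 (E-cadherin), the epithelial counterpart, stood at 124, 132 and 91 FPKM at days 2, 4 and 6 and was not called.

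Fibroblast markers, which feeder cells also express, overlap the matrix genes. Of 16 expressed members of the fibroblast and feeder list (22 in all) 12 were higher and none lower, and their summed level was 29.6, 20.1 and 157 FPKM at days 2, 4 and 6. Much of this list is shared with the collagen and matrix list, including Col1a1, Col1a2, Col3a1, Col5a1, Col5a2, Col6a1, Col6a2, Postn and Tnc. Of the others, Lum (lumican) stood at 0.319, 0.0685 and 11.7 FPKM at days 2, 4 and 6. Fap, Lox, Dpt and S100a4 of that list were below 1 FPKM on both days. The part of feeder-derived cells in these differences was not tested.

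Imprinted growth genes were higher in 14 of 20 cases and lower in 1. Igf2, the fetal insulin-like growth factor (mm9 chr7:149836673-149852721, minus strand), stood at 3.56, 33.4 and 1182 FPKM at days 2, 4 and 6, the highest day 6 level among the higher genes in the plot of day 6 against day 4. Dlk1, a paternally expressed membrane protein of the fetus, stood at 2.83, 1.22 and 26.1 FPKM at days 2, 4 and 6. Plagl1, a zinc finger factor, stood at 1.39, 1.4 and 20.0 FPKM at days 2, 4 and 6, and Cdkn1c, a maternally expressed cell cycle inhibitor, at 30.1, 13 and 118 FPKM at days 2, 4 and 6. Nnat (neuronatin) stood at 34.9, 49.7 and 364 FPKM at days 2, 4 and 6. The 1 lower member was Snrpn, at 205, 209.6 and 104 FPKM at days 2, 4 and 6. Igfbp5, a binding protein for insulin-like growth factors that is not in this list, stood at 0.492, 0.433 and 114 FPKM at days 2, 4 and 6, opposite in direction to Igfbp3.

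Of 20 expressed visceral endoderm genes 7 were higher at day 6 and none lower, with a median of 0.39. Differences lay above 0 for 12 of them and below 0 for 8. Among those below 0, Lrp2 stood at 22.2 FPKM at day 4 and 11.3 at day 6, and Cubn at 15.0 and 11.2 FPKM, neither of them called. Afp (alpha-fetoprotein), the plasma protein of yolk sac and fetal liver, stood at 0.0267, 3.64 and 53.3 FPKM at days 2, 4 and 6. Apoc2, an apolipoprotein, stood at 0.0435, 2.0 and 8.94 FPKM at days 2, 4 and 6, and Rbp4, which carries retinol, at 0.982, 6.34 and 22.2 FPKM at days 2, 4 and 6. Ttr (transthyretin) stood at 0.15, 26.6 and 48 FPKM at days 2, 4 and 6 and was not called. Among 15 gut endoderm genes 3 were higher and 1 lower. Foxa2 and Sox17, factors of definitive endoderm, stood at 1.02, 22.2 and 20.0 FPKM at days 2, 4 and 6, and at 0.608, 18 and 15.6 FPKM at days 2, 4 and 6, respectively, level between days 4 and 6. Foxa1, which follows Foxa2 in endoderm, stood at 0.353, 2.31 and 11.6 FPKM at days 2, 4 and 6. Of 12 genes of parietal endoderm and basement membrane 7 were higher, among them Plat (tissue plasminogen activator) at 0.674, 1.43 and 17.6 FPKM at days 2, 4 and 6 and Lama1 (laminin alpha chain) at 5.58, 5.92 and 23.8 FPKM at days 2, 4 and 6. The 1 lower member was Fst (follistatin), which binds activins, at 5.77, 76.1 and 18.2 FPKM at days 2, 4 and 6.

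Of 18 expressed neural progenitor genes (26 in all) 7 were higher and 2 lower. Their median of 0.92 turned to -0.26 when only genes with at least 5 FPKM were taken, so the upward median rests on genes of low level. Sox1, the earliest specific factor of neuroectoderm, stood at 0.536, 0.0307 and 1.64 FPKM at days 2, 4 and 6, and Pax6, a factor of forebrain and eye, at 1.09, 0.138 and 1.9 FPKM at days 2, 4 and 6. Irx3 and Irx5, homeobox factors of neural tube and of other tissues including heart, were the highest differences of the list, with 0.655, 0.841 and 18.1 FPKM at days 2, 4 and 6, and 0.403, 0.40 and 10.1 FPKM at days 2, 4 and 6, respectively. Zic2, a zinc finger factor of epiblast and neural plate, was lower, at 18.7, 37.4 and 12.6 FPKM at days 2, 4 and 6.

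Genes that pattern the brain were higher in 7 of 13 expressed cases and lower in 1, with a median of 1.03 that turned to -0.75 at a minimum of 5 FPKM. Dmbx1, a homeobox factor of the midbrain, stood at 0.122, 0.0696 and 5.07 FPKM at days 2, 4 and 6. Otx2 and Hesx1, anterior factors, differed from each other: Hesx1 stood at 0.144, 0.585 and 4.11 FPKM at days 2, 4 and 6 and Otx2 at 58, 94.6 and 56 FPKM at days 2, 4 and 6. Neuron genes showed no common direction, with 4 of 12 higher, 1 lower and a median of -0.09 (0.04 at a minimum of 5 FPKM). Tubb3, the neuronal beta-tubulin, stood at 15.4, 2.92 and 10.3 FPKM at days 2, 4 and 6, with its lowest value at day 4, and Stmn2, a microtubule regulator of neurons, at 63.6, 61.2 and 19.07 FPKM at days 2, 4 and 6. The proneural factors Neurog1 and Neurog2 stayed below 1 FPKM on both days. Of 10 expressed neural crest genes 5 were higher and 1, Foxd3, was lower, but Snai2 and Twist1 (1.58, 5.04 and 23.1 FPKM at days 2, 4 and 6) belong to mesenchyme as well, and Sox10, the defining crest factor, was below 1 FPKM.

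Hox genes were at low levels. Of 37 Hox and Cdx genes 15 were expressed, and 12 of these were higher with none lower. Their highest day 6 value was 8.57 FPKM for Cdx2, a posterior factor that was at 2.77 FPKM at day 4. Hoxb2 stood at 0.723, 0.927 and 5.67 FPKM at days 2, 4 and 6 and Hoxb6 at 0.123, 0.0266 and 2.67 FPKM at days 2, 4 and 6. Hoxb1, an early target of retinoic acid, stood at 0.699, 0.831 and 1.54 FPKM at days 2, 4 and 6 and was not called. Of 13 expressed genes of retinoic acid signalling 5 were higher and none lower. Rarb, a receptor gene that retinoic acid induces, stood at 0.14, 0.434 and 8.41 FPKM at days 2, 4 and 6, and Crabp1, which binds retinoic acid in the cytoplasm, at 6.46, 6.11 and 33.8 FPKM at days 2, 4 and 6. Cyp26a1, which degrades retinoic acid, was high from day 4 on, at 0.688, 82 and 76.4 FPKM at days 2, 4 and 6.

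Signalling genes divided by pathway. For BMP, 9 of 19 expressed genes were higher and 1 lower. Its ligands Bmp4 and Bmp5 stood at 4.73, 6.44 and 17.9 FPKM at days 2, 4 and 6, and at 0.0257, 2.02 and 13.8 FPKM at days 2, 4 and 6, and its target Id2, an inhibitor of helix-loop-helix factors, at 27.8, 8.19 and 79.8 FPKM at days 2, 4 and 6. For Hedgehog, 7 of 15 were higher and none lower. The ligand Shh stood at 0, 0.146 and 5.39 FPKM at days 2, 4 and 6, and the receptor and target Ptch1 at 59.9, 11.2 and 39 FPKM at days 2, 4 and 6, with Gli1, a transcription factor and target, at 17.2, 2.47 and 11 FPKM at days 2, 4 and 6. Ptch1 and Gli1 had their lowest control values at day 4. For Notch, 4 of 16 were higher and 1 lower, and the target Hey2 stood at 0.211, 0.729 and 6.68 FPKM at days 2, 4 and 6 and the ligand Dll3 at 4.06, 13.3 and 4.63 FPKM at days 2, 4 and 6. The Notch median of 0.18 turned to -0.08 after quantile normalisation.

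The FGF and Wnt lists had calls in both directions. Of 22 FGF genes 3 were higher and 3 lower, the receptor Fgfr2 standing at 4.48, 2.2 and 10.2 FPKM at days 2, 4 and 6 against the ligand Fgf8 above. Of 18 Wnt targets and feedback genes 4 were higher and 2 lower. Apcdd1, an inhibitor of the pathway, stood at 1.33, 3.56 and 13.2 FPKM at days 2, 4 and 6, and Sp5, a direct target, at 0.477, 26.9 and 9.32 FPKM at days 2, 4 and 6. The Wnt median of 0.10 turned to -0.08 after quantile normalisation and to -0.01 at a minimum of 5 FPKM.

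None of the 25 genes of the cell cycle list was called, with a median of -0.17. None of 24 ribosomal genes was called either, but all 24 had differences below 0, from -0.62 to -0.26 with a median of -0.42, in the values as deposited. Mki67, a marker of cycling cells, stood at 19, 22.5 and 23.5 FPKM at days 2, 4 and 6, a difference of 0.06 whose sign turned under median ratio scaling (-0.02) and quantile normalisation (-0.01). Of 20 expressed genes of the list of cell cycle inhibitors and p53 targets 3 were higher and 1 lower. Ccnd2 (cyclin D2), at 10.1, 4.97 and 31.6 FPKM at days 2, 4 and 6, is counted among the higher genes of this list. It is a cyclin and not an inhibitor, and the cell cycle list above does not hold it. Pmaip1 (Noxa), a p53 target that promotes cell death, stood at 36.1, 47.4 and 11.9 FPKM at days 2, 4 and 6. Glycolysis and hypoxia genes had a median of -0.45, with 1 of 23 higher and 1 lower. Vegfa, the vessel growth factor, stood at 2.58, 13.5 and 41.6 FPKM at days 2, 4 and 6, and Pdk1, which restrains pyruvate oxidation, at 72.2, 62.2 and 27.4 FPKM at days 2, 4 and 6. Among 12 DNA methylation enzymes 2 were higher and 2 lower, and Dnmt3l, the cofactor of the de novo methyltransferases, stood at 190.1, 19.06 and 5.39 FPKM at days 2, 4 and 6. None of 15 epithelial genes was called, and Krt8 stood at 6.0, 197 and 300.1 FPKM at days 2, 4 and 6. Of 13 trophoblast genes 5 were higher and 1 lower, while the defining trophoblast genes Elf5, Gcm1, Tpbpa and Prl3d1 were below 1 FPKM. Of 9 expressed paraxial mesoderm genes 5 were higher and 2 lower, with Foxc1 at 0.0259, 0.662 and 7.7 FPKM at days 2, 4 and 6.

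**Figure D3:**
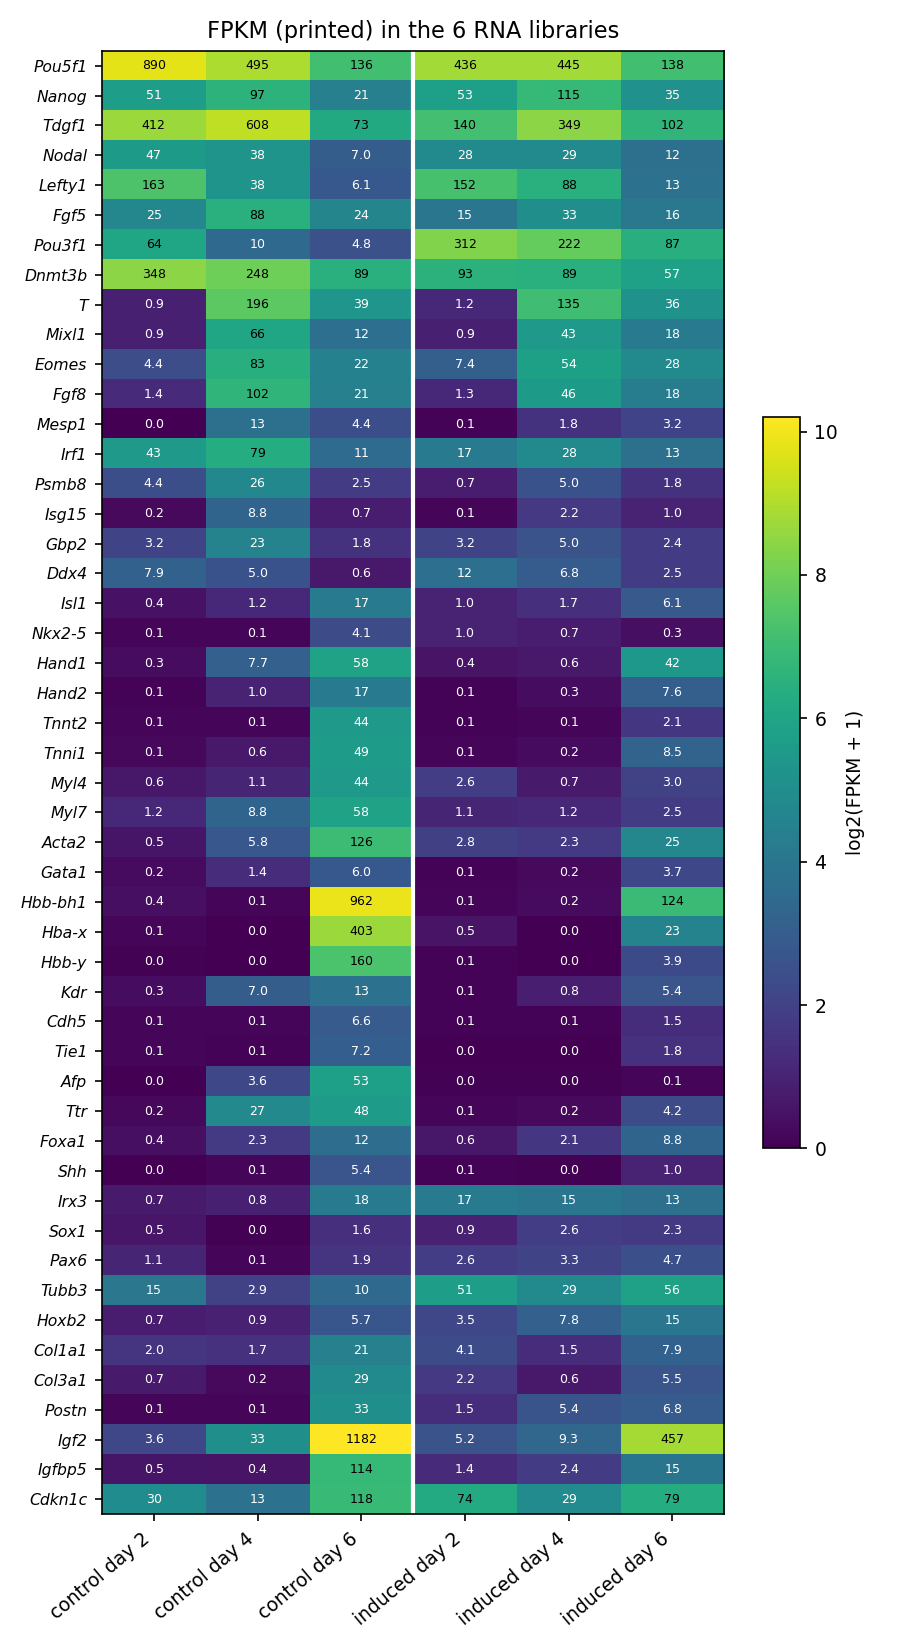
The heat map prints the FPKM of named genes (rows) in the 3 control and the 3 induced libraries (columns), 1 library a column, with colour for log2(FPKM + 1). In the control columns T and the other streak genes are highest at day 4 (196 FPKM for T), and globin and sarcomere genes at day 6 (962 FPKM for Hbb-bh1, 43.8 for Tnnt2).

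The induced libraries cover the same interval and share no library with the control comparison. In them Pou3f1, the induced gene, stood at 312, 222 and 86.8 FPKM at days 2, 4 and 6, against 64.3, 10.1 and 4.76 FPKM at days 2, 4 and 6 in control cells, so it was above the control on each day. In induced cells 12864 genes were expressed, of which 383 (2.98%) were higher at day 6 than at day 4 and 270 (2.1%) were lower, 5.08% in all. Of the control cells' higher genes 202 were also higher in induced cells, 26.1% of the control list and 52.7% of the induced list. Of the lower genes 101 were lower in both, 26.9% and 37.4% of the lists. Opposite calls numbered 15 of the 775 genes higher in control cells, which were lower in induced cells, and 5 of the 375 lower genes, which were higher. The shares over all genes expressed in induced cells were 2.1% lower and 2.98% higher, so the count of 15 is near what that share alone would give. Over 12191 genes the differences of the arms had a Pearson correlation of 0.60, given as a description since genes are not replicates.

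Most of the control cells' called genes had the same sign in induced cells. The genes higher in control cells had a median difference of 1.42 there and of 0.55 in induced cells, where 654 of 775 lay above 0. The genes lower in control cells had medians of -1.33 and -0.65, with 321 of 375 below 0 in induced cells. The shares of all expressed genes above and below 0 in induced cells are not given here, so these counts have no background beside them. Since the genes were chosen by their change in control cells, no difference between the arms was read from these medians.

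Single genes show the range. Hbb-bh1 in induced cells stood at 0.232 FPKM at day 4 and 124 at day 6, and Igf2 at 9.26 FPKM at day 4 and 457 at day 6. Tnnt2 reached less, with 0.101 FPKM at day 4 and 2.09 at day 6, and Nkx2-5 stood at 0.737 FPKM at day 4 and 0.343 at day 6. Afp was nearly undetected, with 0.0347 FPKM at day 4 and 0.115 at day 6. T stood at 135 FPKM at day 4 and 36.1 at day 6 and Mesp1 at 1.81 FPKM at day 4 and 3.19 at day 6, against 12.8 and 4.44 FPKM in control cells. Thus Hbb-bh1, Igf2 and Tnnt2 were higher at day 6 in both arms, and Mesp1 was lower at day 6 in control cells and higher in value in induced cells. The erythroid list had a median of 1.52 in induced cells (2.22 in control cells), the visceral endoderm list 1.09 (0.39) and the brain patterning list 0.01 (1.03), each over the members expressed in its own arm. These contrasts between arms were not tested.

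**Figure D4:**
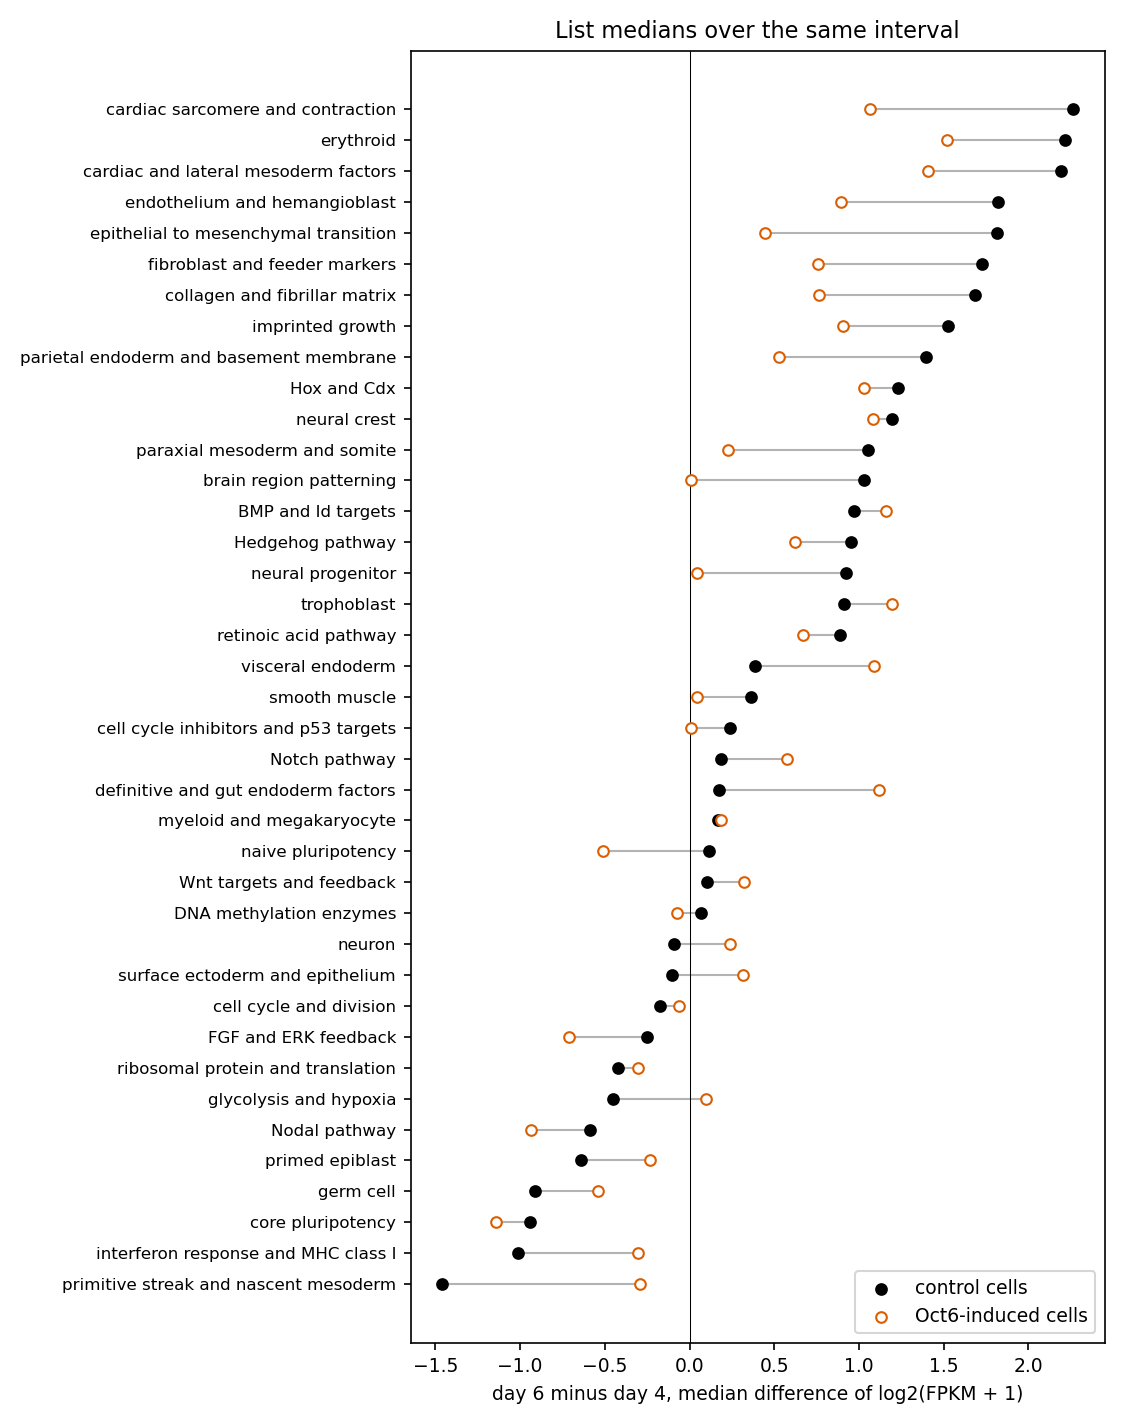
The plot of the arms gives for each gene list the median difference in log2(FPKM + 1), day 6 minus day 4, in control cells (filled circles) and in Oct6-induced cells (open circles), each over the members expressed in that arm. Cardiac sarcomere genes had medians of 2.26 and 1.06, primitive streak genes -1.46 and -0.29, and gut endoderm genes 0.18 and 1.12.

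The deposited peak list of the day 4 Oct6 ChIP, made in overexpressing cells, was set beside the same genes. A peak centre lay within 10 kb of the start of 15.1% of the higher genes (115 of 761, 95% Wilson interval 12.7 to 17.8) and of 14.4% of the lower genes (51 of 354, 11.1 to 18.4). The share was 18.2% for expressed genes (2260 of 12406, 17.5 to 18.9). The intervals cover counting error only. The peaks come from other cells than the control libraries, so they describe where the overexpressed factor was found and not its binding in these embryoid bodies.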

How the data were processed

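RNA-seq libraries of mouse embryoid bodies (control and Oct6-induced, days 2, 4 and 6, 1 library each) were compared within each arm, day 6 against day 4. The submitters' processing notes name HOMER, Cuffdiff, Cufflinks (1.3.0) and TopHat (1.4.1), and the build mm9. The FPKM values were made by the authors and deposited as 1 table of gene symbols. Which reads with several matches were kept, and whether strand was used, was not stated in the labels. The ChIP peak list holds positions and a score per peak, both deposited by the authors; the score was not used.

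Differences were taken on log2(FPKM + 1), with FPKM of at least 1 in either library and a threshold of 1; no test was made, since each side is 1 library. Depth was estimated from the steps between values under 0.3 FPKM. The call rule was run on simulated fragment counts with log2 differences of 1.5 and 3 planted in both directions. The planted genes were not weakly expressed and the planted differences lay above the threshold, so the recovery of 100% was largely set by these choices. Of the 11535 other genes 0.0433% were called. The simulation held counting error only, so it does not bear on the spread between cultures, nor does that recovery bear on weakly expressed genes. Gene positions came from GENCODE on NCBIM37, the assembly of mm9, where 98.4% of expressed symbols matched; printed sequences came from RefSeq (GRCm38.p6), positions included. Promoter shares used windows of 250 bases. Lists held 793 entries (693 distinct symbols), of which 2 were not in the table and 7 matched through an older symbol; some lists overlap.

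The genes, lists and rules were chosen with earlier results of these data known. Named genes were the 12 largest differences in each direction (leaving out small RNA, predicted, RIKEN and pseudogene symbols and chromosome 18), up to 5 expressed members per list with the largest difference, and fixed landmark genes. Chosen after their values were seen were the hairpin genes, Actc1, Alas2, Atp2a2, B2m, Bmp4, Cdh1, Cubn, Cyp26a1, Gata4, Gdf3, Hba-a2, Lrp2, Otx2, Snrpn, Vim, Zic2 and list members named as below 1 FPKM, for a motif or as shared between lists. Values of some list members are not reported here. The alternatives were 2 other pseudocounts (0.1 and 5), a minimum of 5 FPKM, no minimum, 3 scalings and leaving out small RNA and similar symbols, 8 in all. Python 3.11.15 with pandas 2.3.3, numpy 2.4.6 and scipy 1.17.1 was used.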

Additional observations from a re-analysis of the deposited data

Results flagged for a closer look

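Some genes moved in opposite directions in the arms between day 4 and day 6; the difference between the arms was not tested. Sox21, a factor of neural progenitors, had a control difference of 1.51 on the log2(FPKM + 1) scale, from 0.422 to 3.05 FPKM, against 9.64 to 4.05 FPKM in induced cells. Foxf2, a forkhead factor of mesenchyme and a Hedgehog target, had a control difference of 1.97, from 0.104 to 3.31 FPKM, against 9.22 to 4.07 FPKM in induced cells. The hairpin gene Mir290 had a control difference of -1.25, from 1.37 FPKM to a listed 0, and went from a listed 0 to 1.48 FPKM in induced cells. Mir291a had a control difference of -1.76, from 2.38 FPKM to a listed 0, and went from 2.47 to 6.06 FPKM in induced cells. The FPKM of so short a gene is uncertain, and values this low rest on few fragments, in libraries of different depth. With 1 library on each side, none of the genes of this section has a replicate check.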

How the results depend on the processing

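The counts of 775 higher and 375 lower genes moved with the pseudocount. At 0.1 they were 1151 and 634, and at 5 they were 235 and 127. A minimum of 5 FPKM gave 450 and 262. Genes higher in both arms numbered 202, and 330, 55 and 115 under the pseudocounts of 0.1 and 5 and the minimum of 5 FPKM; those lower in both numbered 101, and 203 and 40 under the pseudocounts. Scaling to a common median ratio gave 681 and 424, quantile normalisation 626 and 511, a common sum 871 and 322, leaving out small RNA and similar symbols 708 and 296, and no minimum the main counts.

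The median of the brain region patterning list turned from 1.03 to -0.75 at a minimum of 5 FPKM, where fewer genes are left. Of 165 named genes called in the main comparison 114 still passed the threshold at a pseudocount of 5, 133 at a minimum of 5 FPKM and 162 after quantile normalisation. No paired analysis was possible because each group has 1 library, and no library could be left out for the same reason. The day 4 library was 1.93 times as deep as the day 6 library, so genes near 0 were read less precisely at day 6. Without replicates, the spread between cultures is not known.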
